A study of Mus musculus with 26 samples.

Results

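The segment described here was the part of mouse chromosome 14 from 40 to 90 Mb on mm10 (GRCm38.p6), in which the regions of E14 embryonic stem cells (ESCs) carried more reads than the same regions of ESC clones. Its members were all regions of the 4 E14 tables that lay wholly inside those bounds. There were 408 of 21970 H3K4me3 regions, 497 of 21527 H3K27me3 regions, 507 of 24540 K4-K27 regions and 716 of 36235 K27-K4 regions, 2128 of 104272 in all. They had 1669 distinct sets of coordinates, and 448 of the 21857 regions that both reChIP tables listed with the same coordinates lay in the segment (shared members below). The bounds were chosen by the measured E14 minus clone differences in log2 read density along the chromosome, so that difference is given as a description. Counts of limma calls for it are printed below in the same way, and nothing rests on them.

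Chromatin was cut with MNase and immunoprecipitated for H3K4me3 or H3K27me3. The eluate was immunoprecipitated again with the other antibody, which gave the K4-K27 and K27-K4 reChIPs, and a part of the first eluate was kept as the in-line total. All cells were grown in serum/LIF and carried the label of the E14 line. The E14 group was non-clonal and wild type (WT), with replicates 1 and 2 of each ChIP in sequencing batches A and B. The WT clones were 57 and 58 and the Dppa2/4 double knockout (DKO) clones were 43 and 53, each 1 clonal line, all in sequencing batch C. An IgG-IgG reChIP, which uses no antibody to a histone mark, was made for E14 replicate 1 and for clone 57 only. No batch held both E14 and clone libraries, so sequencing batch and the difference between E14 and the clones cannot be told apart.

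H3K4me3 is laid down at CpG-rich promoters by complexes of the Trithorax family, and H3K27me3 by Polycomb repressive complex 2. Promoters that carry both marks on the same nucleosome are called bivalent. In ESCs many of them belong to developmental regulators that are silent and are switched on or shut off during differentiation. The segment holds several genes of developmental regulators, among them those of the transcription factors Otx2, Gata4 and Sox7 and of the signalling protein Bmp4. DPPA2 and DPPA4 are chromatin-binding partners found in early embryos and ESCs that are needed for both marks at a subset of bivalent promoters.

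The 26 libraries held from 6741244 to 47903462 reads. All 6 ESC markers looked up (Pou5f1, Nanog, Sox2, Esrrb, Zfp42 and Tfcp2l1) had an E14 H3K4me3 region at their promoter, and of 6 markers of other cell types only Myod1 did. The Dppa2 promoter kept total H3K4me3 in every library, at 1.94 and 0.88 (log2 RPM per kb, that is reads scaled to library size and region length) in WT clones 57 and 58 and at 2.14 and 1.33 in DKO clones 43 and 53. Dppa4 had no region within 1.5 kb of its start in the 4 E14 tables. A promoter mark does not check the deletion, and no other check of the knockout was made.

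The promoters of 5 genes of the segment are shown because the comparisons below turn on them. The Bmp4 member of E14 was listed by both reChIPs, with H3K4me3 as its only total. The Ptgdr and Rgcc members were lower in the DKO clones in K27-K4, and the Efs and Tnfrsf19 members at these starts were higher there in that reChIP. Each sequence is the 250 bases before the RefSeq start site in GRCm38.p6, 5′ to 3′ on the minus strand, with every CG dinucleotide in capitals. These 5 were taken from the genes of interest with an entry in the RefSeq promoter table. Gata4, Nefl, Nefm, Scara3, Stc1, Nkx2-6, Ebf2 and Gm5088 had no entry.

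Bmp4, chr14:46390670-46390919: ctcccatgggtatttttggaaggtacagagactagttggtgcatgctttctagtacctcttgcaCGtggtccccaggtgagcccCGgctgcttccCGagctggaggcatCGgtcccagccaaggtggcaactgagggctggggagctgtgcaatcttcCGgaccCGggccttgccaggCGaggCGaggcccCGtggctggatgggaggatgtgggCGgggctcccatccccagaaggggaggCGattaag

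Ptgdr, chr14:44859376-44859625: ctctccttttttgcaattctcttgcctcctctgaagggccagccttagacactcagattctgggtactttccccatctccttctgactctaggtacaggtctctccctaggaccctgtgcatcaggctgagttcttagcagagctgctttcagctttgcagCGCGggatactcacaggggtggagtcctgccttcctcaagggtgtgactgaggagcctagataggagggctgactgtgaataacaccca

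Rgcc, chr14:79301636-79301885: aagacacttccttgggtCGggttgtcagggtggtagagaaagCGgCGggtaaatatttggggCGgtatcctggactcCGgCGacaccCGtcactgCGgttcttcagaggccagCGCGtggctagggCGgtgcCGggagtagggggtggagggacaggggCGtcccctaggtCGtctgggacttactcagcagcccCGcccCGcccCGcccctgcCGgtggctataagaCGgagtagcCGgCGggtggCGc

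Efs, chr14:54926789-54927038: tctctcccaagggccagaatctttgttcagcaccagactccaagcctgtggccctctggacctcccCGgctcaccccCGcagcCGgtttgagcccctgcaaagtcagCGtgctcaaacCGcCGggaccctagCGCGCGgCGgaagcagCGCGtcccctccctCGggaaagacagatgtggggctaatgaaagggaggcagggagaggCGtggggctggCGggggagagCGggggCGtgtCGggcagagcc

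Tnfrsf19, chr14:61037988-61038237: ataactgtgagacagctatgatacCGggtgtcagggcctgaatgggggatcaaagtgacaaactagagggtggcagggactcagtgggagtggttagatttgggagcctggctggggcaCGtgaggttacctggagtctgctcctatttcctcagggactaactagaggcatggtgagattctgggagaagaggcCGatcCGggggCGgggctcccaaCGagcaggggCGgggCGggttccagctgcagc

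The motif counted was CG, which reads the same on both strands. The Rgcc stretch held 22 of them, and 14.8% of the 32851 promoter stretches of this length held at least as many. Efs had 18 (21.7% of all promoters had as many), Bmp4 11 (35.6%), Tnfrsf19 8 (43.0%) and Ptgdr 2 (81.2%), against a median of 6.

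In E14 the members stood at the level of other autosomal regions, and in every clone they stood well below it. In each library the median log2 value of the members was compared with that of the autosomal regions outside the segment, in the table of that ChIP. For total H3K4me3 the difference was -0.02 and 0.01 in E14 replicates 1 and 2, -0.91 and -0.91 in WT clones 57 and 58, and -0.86 and -0.91 in DKO clones 43 and 53. For total H3K27me3 it was -0.04 and -0.02 in E14, -1.0 and -1.03 in the WT clones and -1.03 and -1.0 in the DKO clones. The E14 and clone libraries did not overlap in either total, and the genotypes of the clones lay side by side.

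In the reChIPs E14 and the clones stood apart as well, though in K4-K27 the DKO clones lay somewhat below the WT clones. For K4-K27 the difference was -0.10 and -0.08 in E14, -0.89 and -1.02 in WT clones 57 and 58, and -1.09 and -1.10 in DKO clones 43 and 53. For K27-K4 it was 0.00 and -0.09 in E14, -0.92 and -1.0 in the WT clones and -0.97 and -1.08 in the DKO clones. Over all 4 ChIPs the 8 E14 libraries were at 0.934 to 1.01 times the autosomal level and the 16 clone libraries at 0.467 to 0.553 times.

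**Figure D1:**
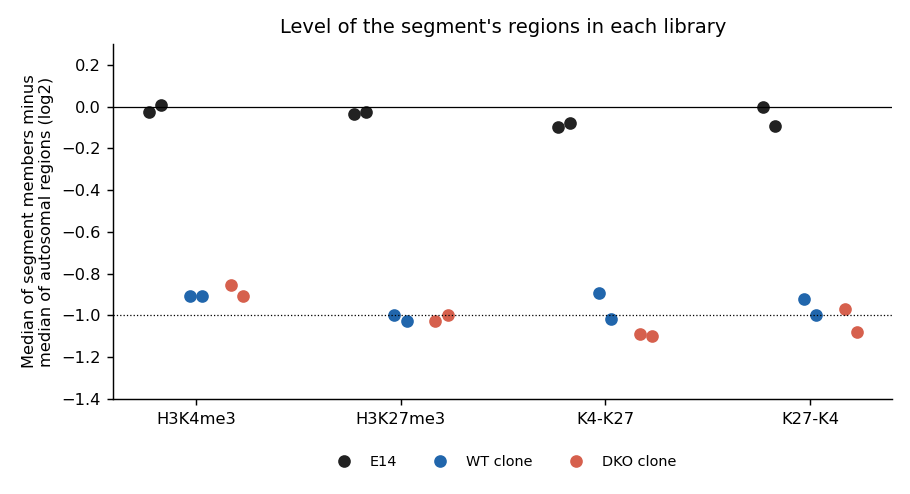
Median log2 value of the segment's members minus that of autosomal regions outside it, for each library of the 4 ChIPs (vertical axis, log2). The E14 points sit between -0.10 and 0.01 and the clone points between -1.10 and -0.86, with the line at -1 marking a 2-fold lower level.

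Set against the WT clones directly, E14 was about 2-fold higher in the segment in each ChIP. The step, the median E14 minus WT difference of the members less that of the autosomal regions outside, was taken on the means of each group, 2 libraries against 2. It was 0.91 for H3K4me3, or 1.87-fold, and the 4 pairs of single libraries gave 0.87 to 0.94. For H3K27me3 it was 1.02 (2.02-fold), just above its pairs at 0.97 to 1.00. K4-K27 gave 0.93 (1.90-fold; pairs, 0.83 to 0.98) and K27-K4 1.02 (2.03-fold; pairs, 0.93 to 1.06). The pairs of a ChIP share libraries, so their range understates the error. The 8 pairs of each ChIP that also include the DKO clones gave 0.83 to 1.09. Above the autosomal reference stood 99.5% of the H3K4me3 members, 94.97% of the H3K27me3, 72.2% of the K4-K27 and 93.9% of the K27-K4 members. On the rest of chromosome 14 that share was 44.8% to 53.9%.

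The step began and ended near the bounds. Averaged over the 4 ChIPs, the regions from 35 to 40 Mb had a median of 0.17 (n = 39) and those from 40 to 45 Mb one of 0.80 (n = 55). At the other end the median was 1.04 from 85 to 90 Mb (n = 39) and -0.17 from 90 to 95 Mb (n = 17). The last regions below 40 Mb, at 39469501 to 39478950 over LOC432842, stood at -1.38 and those at 39478201 to 39478950 at -0.16. The first inside, at 40546351 to 40546650 and 346664 bp from Sh2d4b, stood at 1.24. The last inside, at 89898151 to 89898900 near Gm5088, stood at 0.99 and the first beyond, at 90345601 to 90346350, at -0.89. Because the regions were sparse at both ends, the bounds are known only to within these gaps. Beyond the segment single bins of 5 Mb still stood high, such as K4-K27 at 0.75 from 100 to 105 Mb (n = 37) and total H3K4me3 at 1.29 from 110 to 115 Mb (n = 6). On the other autosomes the median per chromosome stayed between -0.19 and 0.25 in every ChIP.

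**Figure D2:**
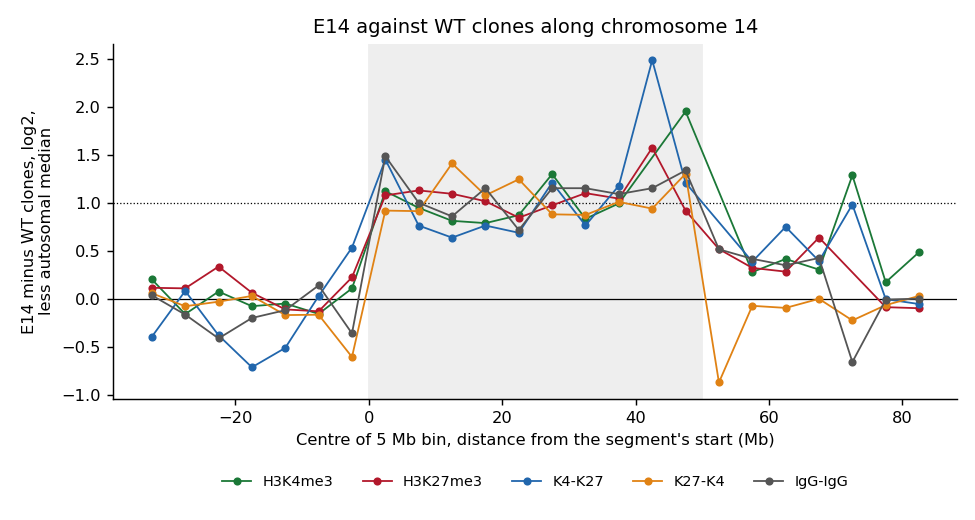
Median difference between E14 and WT clones in bins of 5 Mb along chromosome 14 (vertical axis, log2, less the autosomal median; horizontal axis, distance from the segment's start in Mb; bins of under 5 regions left out), with the segment shaded. IgG-IgG compares E14 replicate 1 with clone 57. Bins within the shading run from 0.64 to 2.49 and those outside from -0.87 to 1.29, the highest outside being an H3K4me3 bin of 6 regions from 110 to 115 Mb.

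The IgG-IgG libraries, made without an antibody to either mark, showed the step too. Whether they were free of marked chromatin was not tested, and clone 57 IgG-IgG stood at 1.29 at Sox2 and 0.64 at Pou5f1 (log2 RPM per kb). Over the 1669 distinct members, E14 had 21620 reads and clone 57 had 24835, with a median of 8 reads per member in each. Per kb, E14 stood at 0.915 of the density of the autosomal regions outside the segment (95% interval from counting error, 0.902 to 0.927) and clone 57 at 0.503 (0.497 to 0.510). On the rest of chromosome 14 the same values were 0.908 and 0.972. On the X chromosome they were 0.517 in E14 and 0.595 in clone 57. The bounds rest on the same E14 and clone difference, so these densities are a description. These intervals cover counting error only, since reads without molecular identifiers are not independent molecules. The median IgG-IgG step was 1.00, or 2.00-fold, and the ratio of summed reads 1.82-fold. Regions with at least 10 reads in both libraries gave a median of 0.63, so the size of this step depends on how its sparse reads are taken.

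**Figure D3:**
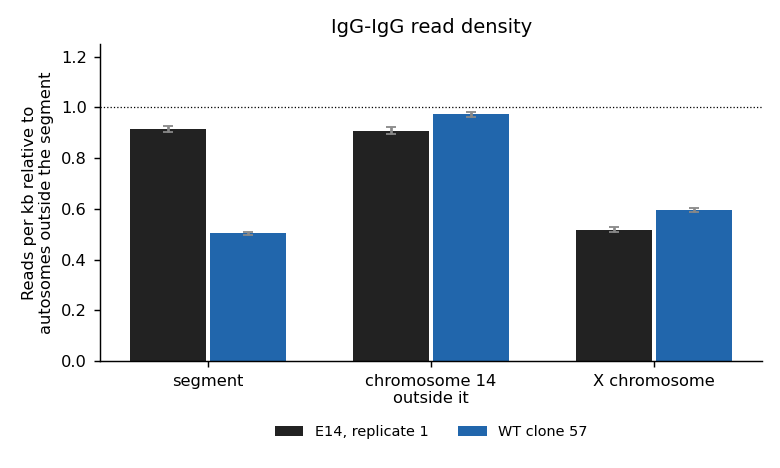
IgG-IgG reads per kb in regions of the segment, of chromosome 14 outside it and of the X chromosome, relative to autosomal regions outside the segment, for E14 replicate 1 and WT clone 57; bars are single libraries and whiskers 95% intervals from counting error. In the segment E14 stands at 0.915 and clone 57 at 0.503.

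The regions above were called in E14. In the clones' own tables, which no E14 library enters, clone 57 IgG-IgG stood at 0.574 to 0.639 of the autosomal density in the segment's regions of the 4 WT tables, against 0.862 to 0.939 on the rest of chromosome 14. In the 4 DKO tables the values were 0.612 to 0.728 and 0.879 to 0.960. By median log2 value relative to autosomes the segment lay below the rest of chromosome 14 only in H3K4me3 and K4-K27. In the WT tables these medians were -0.70 against -0.42 and -0.81 against -0.49. In H3K27me3 both were 0, and in K27-K4 they were -0.57 against -0.57 in the WT and -0.45 against -0.57 in the DKO tables. The clones' own ChIP libraries, in which these regions were called, stood closer to the autosomal density. In the WT tables the segment was at 0.642 to 0.856 of it over the 8 libraries, against 0.926 to 1.03 on the rest of chromosome 14, and in the DKO tables at 0.704 to 0.911 against 0.920 to 1.06. The median log2 value of the segment's regions reached or passed the autosomal median in some of them, with a range of -0.38 to 0.27 in the WT and -0.27 to 0.19 in the DKO libraries. Smaller shares of the called regions lay there as well. For H3K27me3 the segment held 497 regions in E14, 54.9% of those on chromosome 14, but 130 (23.3%) in the WT clones and 156 (18.4%) in the DKO clones. For K27-K4 it held 716, 320 and 258, and for K4-K27 507, 431 and 390. For total H3K4me3 the number rose, with 408, 459 and 494 regions, but the segment's share of those on chromosome 14 fell from 53.3% to 46.0% and 44.0%. Of the 448 shared members, 35.9% overlapped regions of both WT reChIP tables, against 42.8% of the 20771 shared regions elsewhere on autosomes, and 30.1% against 37.2% overlapped both DKO tables.

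The segment's chromatin was otherwise of the usual make-up. Of the 448 shared members, 58 (12.9%) overlapped regions of both in-line totals, 230 (51.3%) of H3K4me3 alone, 45 (10.0%) of H3K27me3 alone and 115 (25.7%) of neither. On autosomes outside, the shares were 12.97%, 51.5%, 11.3% and 24.2%. A promoter, within 1.5 kb of a RefSeq start site, lay at 248 members (55.4%, against 59.1%). Of 579 RefSeq genes that start in the segment, 302 had a shared member at a promoter.

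The step was also taken within each class. E14 and the WT clones also differ outside the segment, in opposite ways for the 2 orientations. Outside, regions with H3K4me3 alone had a median E14 minus WT difference of -1.03 in K4-K27 and 0.37 in K27-K4, relative to all shared autosomal regions. In the segment the same class stood at -0.01 and 1.41, so the step within the class was 1.01 and 1.04. For members with both totals the step was 0.97 in K4-K27 and 1.03 in K27-K4, and for those with H3K27me3 alone 1.10 and 1.12. Members with neither total gave 0.70 and 0.99, the lowest value being that of K4-K27. In the totals themselves all classes gave 0.95 to 1.14. Among promoter members alone, to which the genes below are matched, the values spread more. The 10 with H3K27me3 alone gave 1.42 in total H3K27me3, 0.87 in K4-K27 and 1.483 in K27-K4, and the 29 with neither total gave 0.44 in K4-K27. This split by class was chosen after the data were seen.

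**Figure D4:**
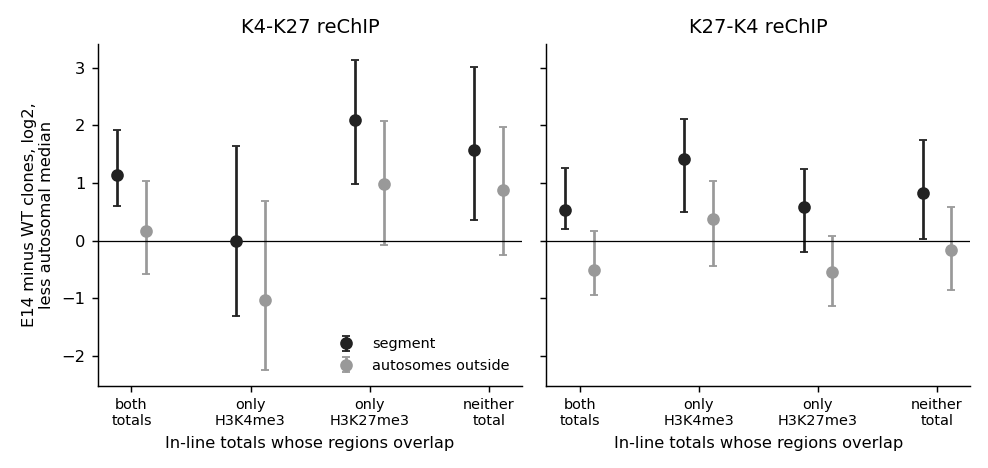
E14 minus WT clone difference of shared regions in K4-K27 and K27-K4 (vertical axis, log2, less the median of all shared autosomal regions) by the in-line totals whose regions they overlap; points are medians and whiskers run from the 10th to the 90th percentile of regions. The segment (black) lies above autosomes outside (grey) in each class, by 0.70 to 1.12.

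The genes of the segment were read from lists of 57 genes, of which 46 had a shared member at their promoter, in 44 separate members since Bmp1, Lgi3 and Sftpc share 1. A shared member is a region listed by both reChIPs, and not every one is taken as bivalent. Those of the 11 broadly expressed genes overlapped no region of total H3K27me3. Relative to other autosomal regions, K27-K4 was higher in E14 than in the WT clones at 43 of the 44 and K4-K27 at 30, while the mean of the orientations was higher at 42. For each gene the remainder is given: the mean over both reChIPs of the E14 minus WT difference, less the IgG-IgG step of 1.00 and less the median of autosomal regions of the same class and promoter status. Over all 248 promoter members the remainder had a median of -0.03, with 10% below -0.54 and 10% above 0.56, and 8 lay beyond 1 in size. Of the 44 list members, 42 lay within 1. The mean hides differences between the orientations: the remainders in K4-K27 and K27-K4 had opposite signs at 29 of the 44 list members and at 148 of the 248 promoter members. Within 1 lay 33 of the 44 in K4-K27 and 40 in K27-K4.

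All 13 transcription factor genes had a shared member, and 8 of these overlapped both totals. Gata4, a regulator of heart and endoderm, lay under a member of 22200 bp at chr14:63236401-63258600. Its K4-K27 level (log2 RPM per kb, here and below) was 2.14 and 2.32 in E14 replicates 1 and 2, 1.12 and 0.79 in WT clones 57 and 58, and 0.53 and -0.10 in DKO clones 43 and 53. The 3 groups did not overlap there. Levels here and below are as deposited, with the step not subtracted. A gap between E14 and the WT clones at a gene thus partly repeats the contrast that set the bounds. In K27-K4 shared autosomal regions outside the segment also stood higher in E14, by a median of 0.81. The Gata4 remainder was 0.27. Otx2, a regulator of forebrain and eye, read 1.06 and 1.95 in E14, 1.09 and 0.73 in WT and 0.95 and 0.23 in DKO, with a remainder of 0.08. E14 and WT overlapped there. In K27-K4 they did not, with 1.68 and 2.74 in E14 and 0.86 and 0.48 in WT.

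Sox7, an endoderm and vessel factor, had a remainder of 0.16 and Ebf2, a factor of brown fat and neurons, one of 0.35. Egr3, an early growth response factor, stood at -0.15. Sall2, a zinc-finger protein, had the largest remainder of the list, at 1.00. Its K27-K4 level was 2.63 and 4.17 in E14 and 1.37 and 0.87 in WT clones 57 and 58, without overlap, and its K4-K27 level 2.39 and 2.98 against 1.53 and 0.44. The list's median remainder was 0.12.

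Among ligands and secreted signals, 7 of 8 genes had a shared member, 2 of them with both totals. Bmp4, which patterns the early embryo, had a member at chr14:46384051-46392000 with H3K4me3 as its only total. K4-K27 there was 0.76 and 1.89 in E14, 1.65 and 1.05 in WT and 2.07 and 1.17 in DKO, so the groups overlapped, and the remainder was -0.25 (0.68 in K4-K27 and -1.18 in K27-K4). Fgf9, a growth factor of lung and gonad, stood at 2.71 and 3.02 in E14 and 2.50 and 1.86 in WT, with a remainder of 0.07 (1.39 in K4-K27 and -1.25 in K27-K4). Stc1, a secreted regulator of calcium and phosphate, had the largest K4-K27 difference of the list. In K4-K27 it read 0.65 and 1.21 in E14 but -0.74 and -2.08 in the WT clones and -0.71 and -1.82 in the DKO clones, and neither genotype had it in both of its reChIP tables. Its remainder of 1.29 came from 3.05 in K4-K27 and -0.47 in K27-K4. Clu, which encodes the chaperone clusterin, had a remainder of 0.93, from 2.21 in K4-K27 and -0.35 in K27-K4.

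Receptors and surface proteins had a shared member at 6 of 8 genes. Gfra2, a receptor subunit for neurturin, and Fzd3, a Wnt receptor, both overlapped both totals and had remainders of -0.08 and -0.19. Adra1a, an adrenergic receptor, had H3K27me3 alone and a remainder of 0.58. Lpar6, a lysophosphatidic acid receptor, had the lowest, at -0.81. Its K4-K27 level was -2.16 and 0.70 in the E14 replicates against 1.81 and 0.73 in the WT clones, so the replicates differed by more than the groups.

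Neuronal genes had a shared member at 7 of 8, and 5 of these overlapped both totals. Nefl, the light neurofilament chain, read 2.34 and 3.21 in E14 K4-K27 and 2.46 and 4.27 in K27-K4, against an E14 IgG-IgG level of -0.92. That put its mean reChIP level 3.99 above IgG-IgG, the second highest of all promoter members after Gm5088 (4.04) and before Samd4 (3.89), Ddhd1 (3.77) and Ebf2 (3.76). Gm5088 owed its place in part to an IgG-IgG value of -2.40 in a region of 1200 bp. Nefl had a remainder of -0.50, Pcdh8, a protocadherin, one of -0.04 and Pcdh17 one of -0.14. Nefm, the medium neurofilament chain, had 0.46.

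Broadly expressed genes looked different. All 11 with a shared member had H3K4me3 as their only total, none was listed by both DKO reChIP tables and 1 (Ctsb, a lysosomal protease) by both WT tables. Rb1, the retinoblastoma cell cycle regulator, read 1.14 and 2.17 in E14 K4-K27 and 2.14 and 1.54 in the WT clones. The list's median difference was 0.24 relative to all shared autosomal regions and its median remainder -0.29. Of 8 differentiated tissue genes only Hr, a nuclear corepressor of hair follicles, and Sftpc, of lung surfactant, had a shared member. The heart myosins Myh6 and Myh7 and Sftpd, Rnase1, Adam7 and Ear2 had no region of any table at their promoter.

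The promoter members at the ends of the E14 minus WT difference once the step was subtracted (before matching by class) were Lcp1 (1.30), Abhd4 (1.05) and Olfr750 (0.92) at the top. Lrp10 (-1.28), Dnajc15 (-1.30) and Micu2 (-1.58) were at the bottom. For Lcp1, an actin-bundling protein of blood cells, K4-K27 was 0.42 and 0.33 in E14 and -3.62 and -2.10 in the WT clones. Those WT values rest on 0 reads in clone 57, entered as 0.9 reads, and 3 reads in clone 58, against 16 and 52 reads in E14. For Abhd4 the WT clones themselves were apart, at 1.61 in clone 57 and -1.98 in clone 58. Micu2, a subunit of the mitochondrial calcium uniporter, read 0.13 and 1.01 in E14 and 1.82 and 1.20 in the WT clones. A gap of this size was as frequent elsewhere: 6.85% of the 248 promoter members and 6.32% of 12282 promoter regions outside lay beyond 1 in size.

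Members past limma's thresholds between E14 and WT clones (a log2 difference above 1 and an adjusted p under 0.05, over each whole table) were counted as a description only. The same contrast set the bounds, so the counts are no test of the step and nothing is read from them. In H3K27me3, 97 members were higher in E14 as deposited (4.69% of the table was called higher, 5.14% in either direction) and 8 were once 1.00 was subtracted (4.59% and 5.04%), with 0 and 2 lower. In K27-K4 the count went from 13 (0.0552% of the table) to 0 (0.00276%), with 38 members higher at an unadjusted p under 0.05 after the step was subtracted. In H3K4me3 and K4-K27 limma called 0 members, and 0.0% of the table, before and after. At an unadjusted p under 0.05, 27 and 89 members were higher and 0 and 5 lower before, and 4 and 4 were higher and 46 and 87 lower after. Centring and single libraries moved these counts widely, as described with the alternatives at the end.

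Within E14 alone, where the step cannot enter, the reChIPs were set against the in-line totals. The shared regions passed into the tables through these same reChIPs, so a higher reChIP level was favoured from the start and the comparison supports nothing about the members. Its 8 libraries also came from 2 preparations, with each total kept from the first eluate of a reChIP, so that they are not independent. At 125 of the 448 shared members limma called the reChIPs higher and at none lower, where 29.3% of all shared regions were called higher and 0.0% lower. At an unadjusted p under 0.05, 185 were higher and 0 lower. The median difference was 1.18 in the segment and 1.18 over all shared regions. Nefl stood 2.596 higher in the reChIPs, Pcdh8 2.69 and Gata4 2.01. Bmp4, at 1.70 ± 0.68 (SE), was not among the members called. With each library centred on its median, 20 members were called, and without replicate 1 or 2 there were 29 or 53. Over all 21857 shared regions, centring called 1099 higher and 2 lower, and leaving out replicate 1 or 2 called 1702 or 2950 higher. Against total H3K4me3 alone, 84 members were higher and 3 lower, and over all shared regions 4399 and 90.

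The second comparison that the bounds do not touch is that of DKO with WT clones, since both genotypes carry the lower level. It asks where the marks depend on DPPA2 and DPPA4. With 2 clones a side no exact test can fall below a two-sided p of 0.333, so limma over the whole table was used, and its p-values measure the spread between clones only. In K27-K4, 20 of 716 members were lower in the DKO clones and 4 higher, where 5.25% of the table was called lower and 0.905% higher, 6.15% in all. In K4-K27, 6 of 507 were lower and 0 higher (3.45% and 0.513% of the table, 3.96% in all). For total H3K4me3 it was 7 of 408 lower and 0 higher (2.04% and 0.0364%, 2.08% in all), and for total H3K27me3 1 of 497 lower and 0 higher (0.799% and 0.177%, 0.976% in all). At an unadjusted limma p under 0.05, 8, 2 and 10 members of these last 3 ChIPs were higher and 31, 27 and 9 lower. The share of the whole table at that threshold was not computed, so nothing is read from these counts.

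Reads limit this comparison in the segment. In the clones a mean of at least 10 reads per library was reached by 51.9% of H3K27me3 members against 81.8% of autosomal regions outside, and by 75.8% against 92.3% in K27-K4. For K4-K27 it was 69.2% against 83.9% and for H3K4me3 92.6% against 94.9%.

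The 38 called members fell into 29 separate loci, 25 lower and 4 higher in the DKO clones. A promoter lay at 10 of these loci, and 8 were called in more than 1 ChIP. Of the 6 regions lower in K4-K27, 5 were also lower in K27-K4, among them the Ptgdr promoter and 3 regions away from promoters. The nearest start sites to those 3 were those of Lats2 (31068 bp), Gm5800 (20269 bp) and Fndc3a (176303 bp). The Fndc3a region, chr14:72529201-72533700, was lower in 3 ChIPs. Its K4-K27 difference, with 1 read in DKO clone 43, was -4.86 ± 1.33 (SE), adjusted p = 0.0104, and its K27-K4 difference -3.11 ± 0.47, adjusted p = 4.3e-08.

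Nkx2-6, a homeobox factor of pharynx and heart, fell by 1.96 ± 0.51 in K27-K4 (adjusted p = 0.00491). In K4-K27 it read 0.61 and 0.16 in WT and -3.36 and -1.43 in DKO, a difference of -2.78 ± 1.12 with an adjusted p of 0.182.

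Scara3, a scavenger receptor-like protein, was lower in total H3K4me3 (-2.53 ± 0.74, adjusted p = 0.036) and in K27-K4 (-2.45 ± 0.40, adjusted p = 5.9e-07). Its total H3K4me3 read 1.61 and 0.45 in the WT clones and -1.36 and -1.64 in the DKO clones. Ptgdr, the prostaglandin D2 receptor, was lower in both orientations, at -2.35 ± 0.69 in K4-K27 (adjusted p = 0.0218) and -1.87 ± 0.38 in K27-K4 (adjusted p = 1e-04). Its K4-K27 level was 0.95 and 1.00 in the WT clones and -1.04 and -1.70 in the DKO clones. Gm5088, at the segment's far end, was lower by 3.08 in K27-K4 as well, with 0.61 and 1.29 in WT and -2.22 and -2.04 in DKO. Rgcc, a regulator of the cell cycle, fell by 1.59 ± 0.43 in K27-K4 (adjusted p = 0.00786). The leukotriene B4 receptor genes Ltb4r1 and Ltb4r2 fell by 1.18 ± 0.35 there (adjusted p = 0.02).

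Nefm was called lower in K4-K27 (-1.85 ± 0.50, adjusted p = 0.00828), but its clones overlapped. It read 2.70 and 1.55 in WT clones 57 and 58 and 1.60 and -1.06 in DKO clones 43 and 53, so clone 53 set the difference. Near Gata4, total H3K4me3 and total H3K27me3 were both lower in overlapping regions that lay 3921 and 4071 bp from its start site. The whole Gata4 member differed by -0.74 ± 0.52 in K4-K27 (adjusted p = 0.732) and by -0.89 ± 0.36 in K27-K4 (adjusted p = 0.133).

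Efs and Tnfrsf19 went up in K27-K4, while in K4-K27 the genotypes overlapped. Efs read 1.81 and 1.24 in WT and 2.19 and 1.09 in DKO in K4-K27, and the Tnfrsf19 start member 1.61 and 0.47 in WT and 1.53 and 1.12 in DKO. In K27-K4 Efs, an adaptor protein of integrin signalling, read 0.63 and -0.05 in the WT clones and 2.03 and 1.63 in the DKO clones, a difference of 1.54 ± 0.37 (adjusted p = 0.00146). Tnfrsf19, a receptor of the TNF family, rose at the start site whose sequence is shown, from 0.46 and -0.67 to 1.12 and 0.88, a difference of 1.10 ± 0.36 (adjusted p = 0.0433). Its other member, at 61044901 to 61048800, differed by 0.08 in K27-K4 (adjusted p = 0.952) and by -0.91 in K4-K27 (adjusted p = 0.54). The E14 replicates stood at 1.32 and 2.63 for Efs and at 1.72 and 2.73 for Tnfrsf19.

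**Figure D5:**
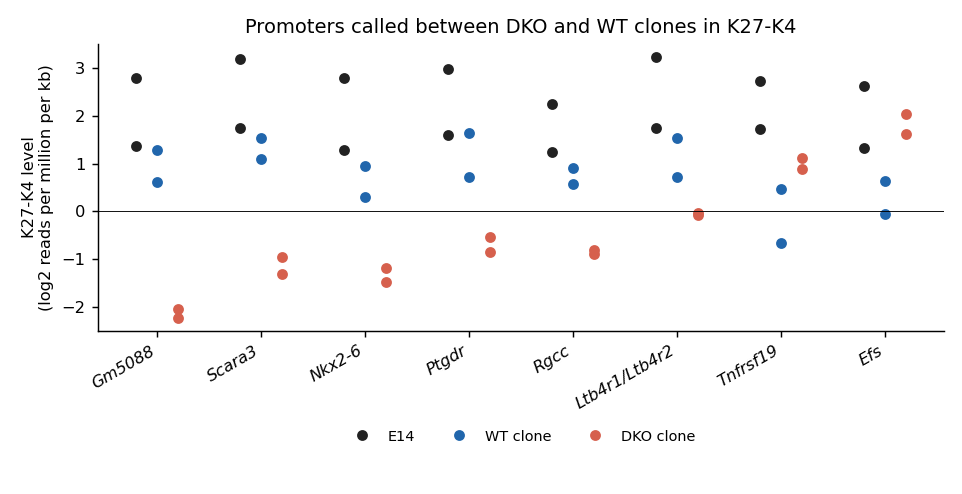
K27-K4 level (vertical axis, log2 RPM per kb, as deposited) of 8 promoter members called between DKO and WT clones in that reChIP; each point is 1 library. The DKO clones lie below both WT clones at the first 6 and above them at Tnfrsf19 and Efs. E14 points are as deposited, with the step not subtracted.

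Many of these promoter calls were lost when 1 clone was left out (limma, adjusted p over the whole table), which leaves an arm of 1 clone that is assumed to vary like the others. Without WT clone 57 the call was lost for Scara3 in H3K4me3 (-1.95, adjusted p = 0.238), Ptgdr in K4-K27 (-2.37, 0.372) and in K27-K4 (-1.41, 0.0782), Nkx2-6 (-1.63, 0.159), Nefm (-1.28, 0.531), Rgcc (-1.43, 0.107) and Ltb4r1 and Ltb4r2 (-0.77, 0.293). Without WT clone 58 it was lost for Ptgdr in K4-K27 (-2.32, 0.275) and for Tnfrsf19, which stood at 0.54 (0.293) without that clone and at 1.67 without clone 57. Without either DKO clone it was lost for Scara3 in H3K4me3, Rgcc, the Ltb4r genes, Efs and Tnfrsf19, though the differences stayed near those above. Without clones 43 and 53 in turn they were -2.67 and -2.39 for Scara3, -1.64 and -1.55 for Rgcc, -1.21 and -1.16 for the Ltb4r genes, 1.34 and 1.74 for Efs and 0.98 and 1.22 for Tnfrsf19. Without clone 53 the call was also lost for Ptgdr in K4-K27 (-2.01) and for Nefm, which then stood at -0.52. Gm5088 and Scara3 in K27-K4 stayed called with any 1 clone left out, though not with limma's plain moderation (adjusted p = 0.0509 and 0.0592).

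By list, the median DKO minus WT difference in K27-K4 was -0.37 for transcription factor genes, -0.52 for neuronal genes, -0.31 for ligands, -0.02 for receptors, 0.05 for broadly expressed and -0.39 for differentiated tissue genes, beside -0.04 over all regions tested. In K4-K27 the medians were -0.36, -0.64, 0.14, -0.24, -0.06 and -0.52 in the same order, beside -0.11 over all regions. The lists hold 2 to 13 genes with a shared member and were not set beside promoters alone. The member of Bmp1, Lgi3 and Sftpc enters the ligand, neuronal and differentiated tissue lists. Its own K4-K27 difference is the neuronal median of -0.64. Among the shared members of the list genes reported here, that of Nkx2-6 was called lower in K27-K4 and that of Nefm lower in K4-K27. The Tnfrsf19 start member was called higher in K27-K4. The calls were not equally firm. Of the 24 K27-K4 members, 11 remained called without WT clone 57, 13 without DKO clone 43, 15 without DKO clone 53 and 21 without WT clone 58. All 24 kept their direction. With limma's moderation run without trend and robust settings, 1 of the 24 remained. Of the 7 H3K4me3 members, none remained called without WT clone 57 or without DKO clone 53, 1 without DKO clone 43 and 7 without WT clone 58. Of the 6 K4-K27 members, 0 remained without WT clone 57 and 3 without each of the other clones. The single H3K27me3 member, near Gata4, remained called only without WT clone 58. New members were called as well, but the balance of their directions is not read, since leaving out a clone shifted the whole table. In H3K4me3 the median DKO minus WT difference without WT clone 57 was 0.69 in the segment and 0.66 over all regions. Without WT clone 58 it was -0.54 in both. In K27-K4 the medians were 0.01 and 0.03 without clone 57 and -0.29 and -0.17 without clone 58.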

How the data were processed

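Mouse ESC ChIP-reChIP libraries (26) were analysed. Per the paper's methods the authors trimmed reads with Trim Galore 0.6.6, aligned them to mm10 (GRCm38.p6) with BWA 0.7.13, marked duplicates with Picard 2.6.0 and called regions for E14, WT clones and DKO clones separately against IgG-IgG. The deposited values were log2 RPM per kb of region, quantified by the authors from reads of mapping quality over 20, extended by 200 bp, with duplicates kept. A region with 0 reads was entered as 0.9 reads. Whole reads were recovered for all values within a tolerance of 0.01, and were used for depth, IgG-IgG densities and read minimums. Libraries held 6741244 to 47903462 reads, and regions with few reads in the clones are less precise. A further 32 columns of values that matched no sample were not used.

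Groups came from the labels. Replicates of E14 and clones are separate preparations as far as the labels say, so p-values measure only the spread between these samples, which may in part be technical. Differences were fitted with limma 3.58.1 in R 4.3.3 (lmFit, eBayes with trend and robust settings) over each whole table of log2 values, with Benjamini-Hochberg adjustment, and called at a log2 difference above 1 and an adjusted p under 0.05. Fits were checked on simulated data. Medians were computed in Python 3.11.15 (pandas 2.3.3 on numpy 2.4.6, intervals from scipy 1.17.1) and drawn with matplotlib 3.10.9. The IgG-IgG median of 1.00 was subtracted as the step. A promoter lay within 1.5 kb of a RefSeq start site. Replicate numbers 1 and 2 of E14 mark sequencing batches shared by all its ChIPs, and deviations of same-numbered libraries correlated at -0.21 to 0.58 across regions.

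Named genes were list genes at a member, the 5 promoter members highest above IgG-IgG, promoters called between DKO and WT clones (at most 10, largest difference first), and the 3 highest and 3 lowest shared promoter members after the step was subtracted. The values of 1 promoter that these rules name are not reported here, though counts and medians include it. The members, lists and rules were chosen with earlier results of these data known. Alternatives were other references and centring, a minimum of 10 reads, all 4 clones, plain moderation, a replicate block and leaving out each library.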

Additional observations from a re-analysis of the deposited data

How the results depend on the processing

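The steps and the 13 named promoter results between DKO and WT clones kept their direction in the alternatives run. The counts of members called between DKO and WT clones did not. Leaving out a clone leaves an arm of 1 clone, so nothing is read from their balance. Without WT clone 57 the median H3K4me3 difference over all regions itself moved, from 0.08 to 0.66. Of the alternatives for those promoter results, 52 stayed on the same side of the threshold and 39 fell below it. For steps and counts, 59 alternatives stayed near the reported value and 68 moved away, by size alone. With chromosome 14 outside the segment as reference the step was 0.86 for H3K4me3, 0.95 for H3K27me3 and 1.13 for K27-K4. Summed reads gave 0.96 for H3K4me3, 1.12 for H3K27me3 and 0.86 for IgG-IgG. At a minimum of 10 reads H3K27me3 gave 0.95 and IgG-IgG 0.63, IgG-IgG over the H3K4me3 and H3K27me3 regions alone gave 0.83 and 1.12, and all 4 clones gave 1.04 for K4-K27. Leaving out 1 library gave 0.90 to 0.94 for H3K4me3, 0.99 to 1.04 for H3K27me3, 0.86 to 0.93 for K4-K27 and 0.94 to 1.06 for K27-K4.

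The counts in this paragraph pool members higher and lower in E14 and lack the share of the whole table called. Nothing is read from them. Leaving out 1 library also leaves a group of 1 library and can shift the whole table. Without WT clone 58 the median H3K4me3 difference over all regions moved from -0.82 to -1.41. For K4-K27 it moved from -0.13 to -0.49 without E14 replicate 2, and for K27-K4 from 0.82 to 1.28 without E14 replicate 1. Members called between E14 and WT clones as deposited came to 77 in H3K4me3, 0 in H3K27me3 and 94 in K27-K4 with centring, and to 1 in H3K27me3, 28 in K4-K27 and 340 in K27-K4 with all 4 clones. Leaving out 1 library gave 0 to 49, 0 to 120, 0 to 81 and 0 to 305 in H3K4me3, H3K27me3, K4-K27 and K27-K4. After the step was subtracted centring gave 2 in H3K4me3, 0 in H3K27me3 and 3 in K27-K4, and all 4 clones gave 0 in H3K27me3, 88 in K4-K27 and 27 in K27-K4. Leaving out 1 library then gave 0 to 241, 0 to 44, 0 to 108 and 0 to 72.

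Members called between DKO and WT clones came to 12 in H3K4me3, 0 in H3K27me3 and 2 in K4-K27 with centring, to 2 in H3K27me3 at a minimum of 10 reads, and to 16, 3, 18 and 2 in H3K4me3, H3K27me3, K4-K27 and K27-K4 with limma's plain moderation. Leaving out 1 clone gave 0 to 22, 0 to 2, 3 to 5 and 15 to 49. In E14, reChIPs against totals, the replicate block called 115 members, centring 20, total H3K27me3 alone 287, total H3K4me3 alone 87 (84 higher, 3 lower) and leaving out a replicate 29 to 53. Over all 21857 shared regions the replicate block called 6054 higher and total H3K27me3 alone 14399 higher. The replicate block was run for this comparison only, since the clones share no numbers. The causes were not tested. In H3K27me3 the median number of reads per member was 10.25 in the clones against 26 in E14.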
